A study of Mus musculus with 21 samples.

Results

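Granulosa cells of aged mice that had received LRP1high cells (Aged + LRP1high) were compared with granulosa cells of aged mice that had received none (Aged). The libraries were chosen by their labels, which gave 3 Aged + LRP1high and 2 Aged libraries, 5 of the 9 granulosa cell libraries and of the 21 libraries of the series, whose others are oocyte libraries. LRP1high cells are human umbilical cord mesenchymal stem cells (UC-MSCs) sorted by flow cytometry for a high surface level of LRP1, an endocytic receptor of the low-density lipoprotein receptor family. They had been injected beneath the ovarian capsule of ICR mice, and the mice of both groups were 18 months old. Cells were collected 3 weeks after transplantation, by freeing them from cumulus-oocyte complexes with hyaluronidase. The other granulosa cell libraries were 2 from aged mice given the LRP1low subpopulation (Aged + LRP1low), 1 from aged mice given unsorted UC-MSCs (Aged + Unsorted), and 1 from mice of 6 to 8 weeks (Young). The comparison asks which transcripts of aged granulosa cells differ after the transplantation. A sham operation of the Aged mice is not mentioned in the sources used here, nor is the number of animals or cells behind a library, so the p-values measure only the spread between these libraries.

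Granulosa cells surround the oocyte in the follicle and pass metabolites to it through gap junctions. They answer follicle-stimulating hormone through the receptor Fshr, turn androgens into oestrogen with aromatase (Cyp19a1), and secrete inhibins, activins and their binding protein follistatin. After ovulation they become luteal cells, which make progesterone from cholesterol, a synthesis that starts inside mitochondria with the enzyme Cyp11a1. Their mitochondria carry a genome of their own that encodes 13 subunits of the respiratory chain, while all other subunits are encoded in the nucleus.

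Expression was measured as FPKM, the fragments per kilobase of gene scaled to all fragments of the library. Values of the 2 Aged libraries are given in the order replicate 1 and 2, and those of the 3 Aged + LRP1high libraries in the order replicate 1, 2 and 3. The aligned sequence of a library, read from the ratio of coverage to FPKM, was 0.956 and 1.10 gigabases in the Aged against 0.567, 1.28 and 1.14 gigabases in the Aged + LRP1high libraries. At these depths a single read pair over 1 kilobase of a gene amounts to an FPKM from 0.234 to 0.529. Of that sequence, 10 genes that resemble a satellite repeat, Gm10800 and its relatives, held 0.665 and 0.777 gigabases in the Aged libraries. They held 0.275, 0.889 and 0.368 gigabases in the Aged + LRP1high libraries, which was the larger part in replicate 2 but not in replicates 1 and 3. These genes made up 93.4% and 95.4% of the TPM, a share of all transcripts corrected for length, in the Aged against 82.5%, 96.4% and 68.5% in the Aged + LRP1high libraries. The share was 7.84% in the Young library. Outside these genes, the mitochondrial genome held 72.7% and 67.6% of the remaining TPM in the Aged libraries, and 27.5%, 37.9% and 7.80% in the Aged + LRP1high libraries.

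The start of the coding sequence of Gm10800 is shown because this gene alone reached an FPKM between 437534 and 944446 in the 5 libraries. It lies on the minus strand at chr2:98666547-98667301 (GRCm38), and bases 1 to 225 of its 660 coding bases in the GENCODE transcript are:
Gm10800: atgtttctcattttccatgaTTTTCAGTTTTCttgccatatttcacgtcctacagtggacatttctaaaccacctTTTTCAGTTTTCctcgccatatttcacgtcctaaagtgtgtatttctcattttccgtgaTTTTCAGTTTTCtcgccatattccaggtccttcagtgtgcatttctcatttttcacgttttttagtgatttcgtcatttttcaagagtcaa
Capitals mark a word of 12 bases that occurs 7 times in the coding sequence, 3 of them in this stretch. All 10 genes of the family hold this word on one of the strands, against 0.193% of the genes outside the family. A shift of the sequence against itself by 225 bases gave the highest identity of the shifts tried, 56.3%. Between 35.8% and 92.1% of a member's words of 31 bases also occur in another member. Reads on shared stretches can be assigned to several of these genes, so the level of any single member is uncertain.

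**Figure D1:**
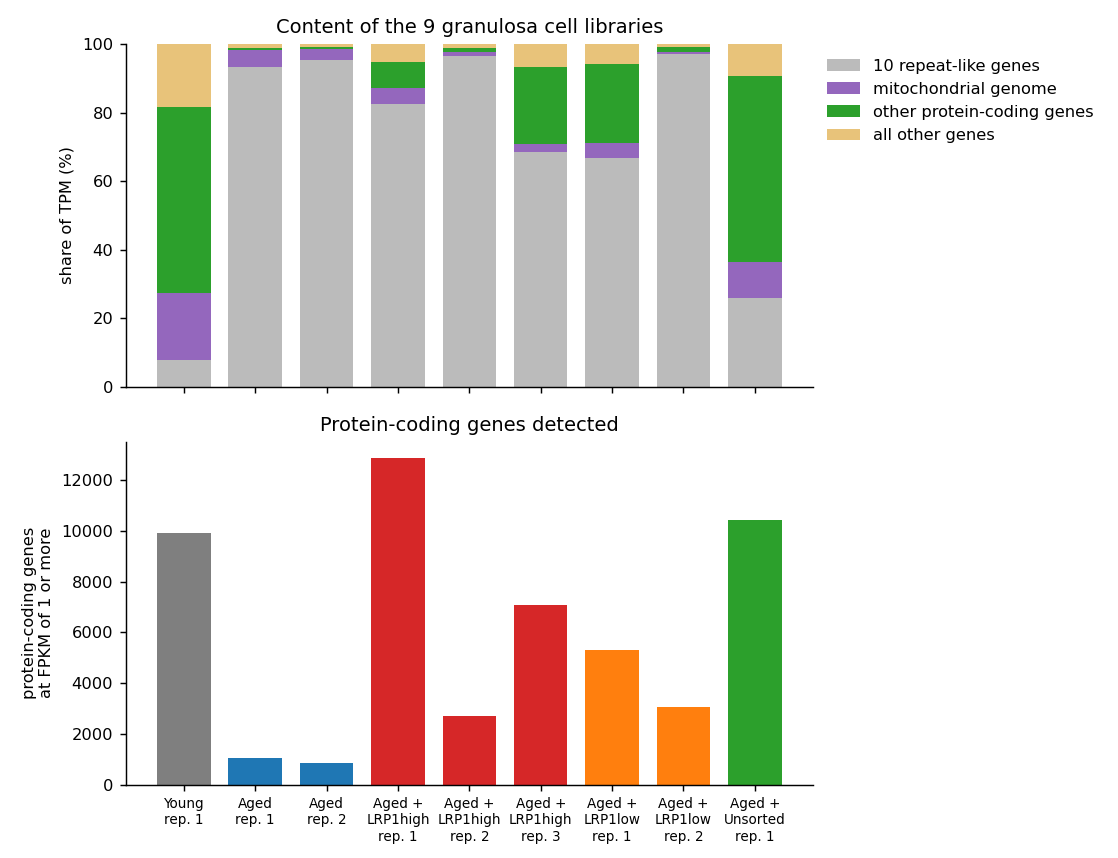
Top, share of the deposited TPM in each granulosa cell library taken by the 10 repeat-like genes, the mitochondrial genome, other protein-coding genes and all other genes. Bottom, number of protein-coding genes outside the repeat-like family at an FPKM of at least 1. Both Aged libraries have the lowest numbers, 1043 and 853, and the 3 Aged + LRP1high libraries have 12882, 2714 and 7071.

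The Aged libraries held little signal of nuclear protein-coding genes. In them 1043 and 853 protein-coding genes outside the repeat-like family reached an FPKM of 1, against 12882, 2714 and 7071 in the Aged + LRP1high and 9906 in the Young library. Transcripts that every cell uses were low there. Beta-actin (Actb) was at 0.461 and 1.74 in the Aged against 565, 18.9 and 13535 in the Aged + LRP1high libraries. The elongation factor Eef1a1 was at 0 and 0.290 and at 16.3, 0 and 146, and the ribosomal protein Rplp0 at 0 and 0.642 and at 6.59, 1.05 and 6.69. A value of 0 is therefore reported below as a gene listed at 0, and with deposited FPKM no fold is given against a group at 0. As a measure of signal on genes that are silent outside sensory tissue, 328 vomeronasal receptor genes were counted. Of these, 22 and 25 reached an FPKM of 1 in the Aged libraries, 132, 7 and 17 in the Aged + LRP1high libraries, and 1 in the Young library. Aged + LRP1high replicate 1, which has the most detected genes, was thus also the library with the most signal on silent genes. In such bulk samples, fewer cells of a type and less RNA per cell cannot be told apart.

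The Aged + LRP1high libraries differed among themselves in which genes they held. Of the 14763 protein-coding genes outside the family that reached an FPKM of 1 in any of them, 1727 did so in all 3. Replicate 1 alone accounted for 6923, replicate 3 for 1417 and replicate 2 for 246. The genes detected in replicates 1 and 3 overlapped in 5436 genes, which are 42.2% of those of replicate 1 and 76.9% of those of replicate 3. Across the 13002 genes tested, which are not independent replicates, the rank correlation between libraries was 0.53 for the pair of Aged libraries and 0.22, 0.19 and 0.31 for the 3 pairs of Aged + LRP1high libraries.

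No gene was called different between Aged + LRP1high and Aged granulosa cells. Of 13002 genes whose FPKM averaged 1 or more across the 9 granulosa cell libraries, 0 were higher (0%) and 0 lower (0%) at a fold over 1.5 and an adjusted p under 0.05 (limma on log2(FPKM + 1), Benjamini-Hochberg). The smallest adjusted p was 0.0761. At an unadjusted p under 0.05 and the same fold, 1039 genes (7.99%) were higher and 67 (0.515%) lower. All 3 Aged + LRP1high libraries lay above both Aged libraries for 6555 genes (50.4%) and below both for 180 (1.38%). The median of the log2 changes was 0.89, and 92.8% of the genes had a higher mean in Aged + LRP1high. This median moved with the scale: it was 1.02 with TPM rescaled without the repeat-like genes, 0.17 with TPM over protein-coding genes, 0.05 after quantile normalization and -0.73 after centring each library on the median of genes averaging an FPKM of 10 or more (median centring). Quantile normalization and median centring also turned the balance of unadjusted results, to 428 higher and 919 lower and to 121 higher and 187 lower. Single libraries moved the count of 1106 unadjusted results, which was 97 without Aged replicate 1, 136 without Aged replicate 2 and 2772 without Aged + LRP1high replicate 2. Of the genes tested, 2568 were listed at 0 in both Aged libraries, and 11153 would have passed the filter without the Aged + LRP1high libraries. Changes are on the log2(FPKM + 1) scale, which understates those of weakly expressed genes. The adjusted p of the genes named in the text lay between 0.0761 and 0.959.

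**Figure D2:**
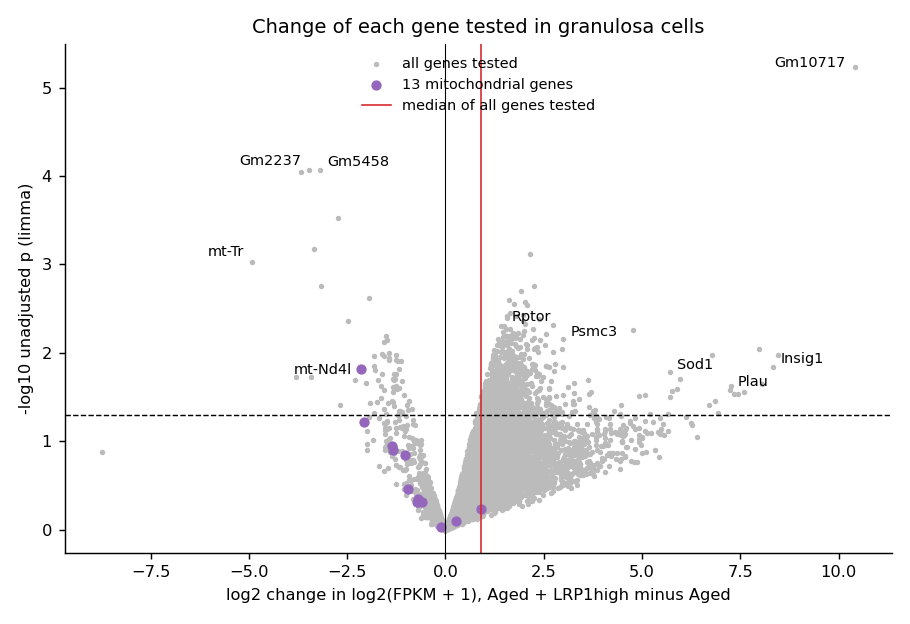
Change of the 13002 genes tested (x axis, difference in mean log2(FPKM + 1), Aged + LRP1high minus Aged) against -log10 of the unadjusted p of limma (y axis). Grey points are genes, purple points the 13 mitochondrial protein-coding genes, the dashed line is an unadjusted p of 0.05 and the red line the median change of 0.89. Most genes lie right of 0, while 11 of the 13 mitochondrial genes lie left of it.

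Among protein-coding genes whose groups did not overlap, those with the smallest unadjusted p on the higher side were Gm10717, Gm4707, H2al1f, Pnpla7 and Surf1. Gm10717, a member of the repeat-like family, was listed at 0 in each Aged library and at 851, 3363 and 886 in the Aged + LRP1high libraries, with an unadjusted p of 5.85e-06. Its value was 152 in the Young library, 456 in the Aged + Unsorted library and 2031 and 1910 in the Aged + LRP1low libraries. Gm10717 was called under several alternatives, among them median centring. Under that scaling Gm10718, another member of the family, was called in the opposite direction. As stated above, the level of any single member of the family is uncertain. Gm4707 was at 0.106 and 0.163 in the Aged against 6.79, 2.81 and 4.34 in the Aged + LRP1high libraries, and H2al1f, a histone variant gene of the testis, at 0 and 0.0994 and at 3.35, 2.02 and 3.75. Surf1, an assembly factor of cytochrome c oxidase, was at 0.118 and 0 and at 3.50, 2.18 and 2.11, a change of 1.75 (SE 0.35) with an unadjusted p of 0.00277. Pnpla7, a lysophospholipase, was at 0.218 and 0.140 and at 2.83, 2.64 and 2.34, so that the 3 Aged + LRP1high libraries lay close together. Its change of 1.61 (SE 0.32) was -0.010 after median centring.

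Another group of genes was high in Aged + LRP1high replicates 1 and 3, lower in replicate 2, and near 0 in both Aged libraries. Of the 1210 protein-coding genes at an FPKM of at least 1 in all 3 Aged + LRP1high and under 1 in both Aged libraries, Abhd2, Insig1 and Sept10 had the highest minimum over the Aged + LRP1high libraries. These genes were picked by their values and are given as a description. Insig1, which holds back the sterol response, was at 0.218 and 0.238 in the Aged and at 342, 26.6 and 6712 in the Aged + LRP1high libraries, a change of 8.34 (SE 2.43) with an unadjusted p of 0.0144. Abhd2, a lipase that answers progesterone in sperm, was at 0.385 and 0.149 and at 591, 29.2 and 1831. Soat1, which esterifies cholesterol for storage and had a lower minimum than the genes named by this rule, was at 0.151 and 0.331 and at 496, 7.88 and 2232. The same genes were well expressed in the Young library, at 1424 for Insig1, 821 for Abhd2 and 1120.3 for Soat1. In the Aged + LRP1low libraries Insig1 was at 4036 and 199, Abhd2 at 1749 and 67.0 and Soat1 at 709 and 21.6.

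Genes of granulosa identity and of the response to follicle-stimulating hormone differed over orders of magnitude among the 3 Aged + LRP1high libraries. Few of them reached an FPKM of 1 in replicate 2. For all lists but 7, the mitochondrial genome and 6 named with the plot of list medians, the median turned from above to below 0 after median centring, and other scalings that turned a median are named with it. The counts of each list are to be read beside the shares of all genes tested. Of all genes, 7.99% were higher at an unadjusted p under 0.05 and 50.4% did not overlap on the higher side. Of the 10210 protein-coding genes tested, 957 and 5909 did so, which are larger shares. The granulosa list holds 22 genes, of which 20 were tested, 1 was higher at an unadjusted p under 0.05 (5%), and 12 did not overlap between the groups (60%). Its median change was 1.61, beside 0.89 over all genes, and -0.02 after median centring. At an FPKM of 1 or more were 1 and 1 of its genes in the Aged libraries, 16, 3 and 18 in the Aged + LRP1high and 20 in the Young library. The inhibin subunit Inha, which joins with either beta subunit to restrain pituitary hormone release, was listed at 0 in each Aged library and at 0.555, 0.390 and 263 in the Aged + LRP1high libraries. The activin subunit Inhba was at 0.224 and 0.251 and at 12.3, 0.262 and 83.9, and Inhbb at 0.174 and 0 and at 32.5, 1.87 and 141. Thus replicate 3 held both kinds of subunit, whereas replicate 1 held Inhba and Inhbb with little Inha. The change was 3.18 (SE 1.97) for Inhba and 4.46 (SE 1.84) for Inhbb, and Inha, Inhba and Inhbb had unadjusted p of 0.294, 0.159 and 0.0521. Follistatin (Fst), which binds activin, was at 0.145 and 0.236 and at 1.05, 0.445 and 247, again high in replicate 3 only.

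Receptors, enzymes and other members of the list were likewise highest in replicate 3. Fshr was at 0 and 0.297 in the Aged against 1.48, 0.0827 and 27.2 in the Aged + LRP1high libraries, so that replicate 2 lay below Aged replicate 2 and the groups overlapped. Its level in replicate 3 was close to that of the Young library, 23.2. Cyp19a1 was at 0 and 0.314 and at 0.294, 0.468 and 10.2, and the groups overlapped for this gene as well. The gap junction protein Gja1 was at 0.302 and 0.818 and at 21, 1.14 and 839, a change of 4.47 (SE 2.78). Foxl2, the transcription factor that maintains granulosa fate, was at 0.0964 and 0.0837 and at 4.43, 0.912 and 25.8, a change of 2.58 (SE 1.17). Amh, the anti-Müllerian hormone of small growing follicles, was listed at 0 in all of the Aged and Aged + LRP1high libraries but Aged + LRP1high replicate 3, at 0.402, and was below the filter. Of the 10 genes set as granulosa cell markers, 0 and 0 reached an FPKM of 1 in the Aged libraries, 6, 0 and 8 in the Aged + LRP1high and 9 in the Young library. In Aged + LRP1high replicate 1, 132 of 328 vomeronasal receptor genes also reached this cut. Its 6 markers alone thus do not establish the cell type. By this cut the labelled cell type was not visible in either Aged library nor in Aged + LRP1high replicate 2. Below the cut, the 10 markers summed to 1.12 and 1.32 in the Aged libraries and to 3.87 in that replicate. Listed at 0 were 5 and 4 of them in the Aged libraries and 2 in that replicate.

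**Figure D3:**
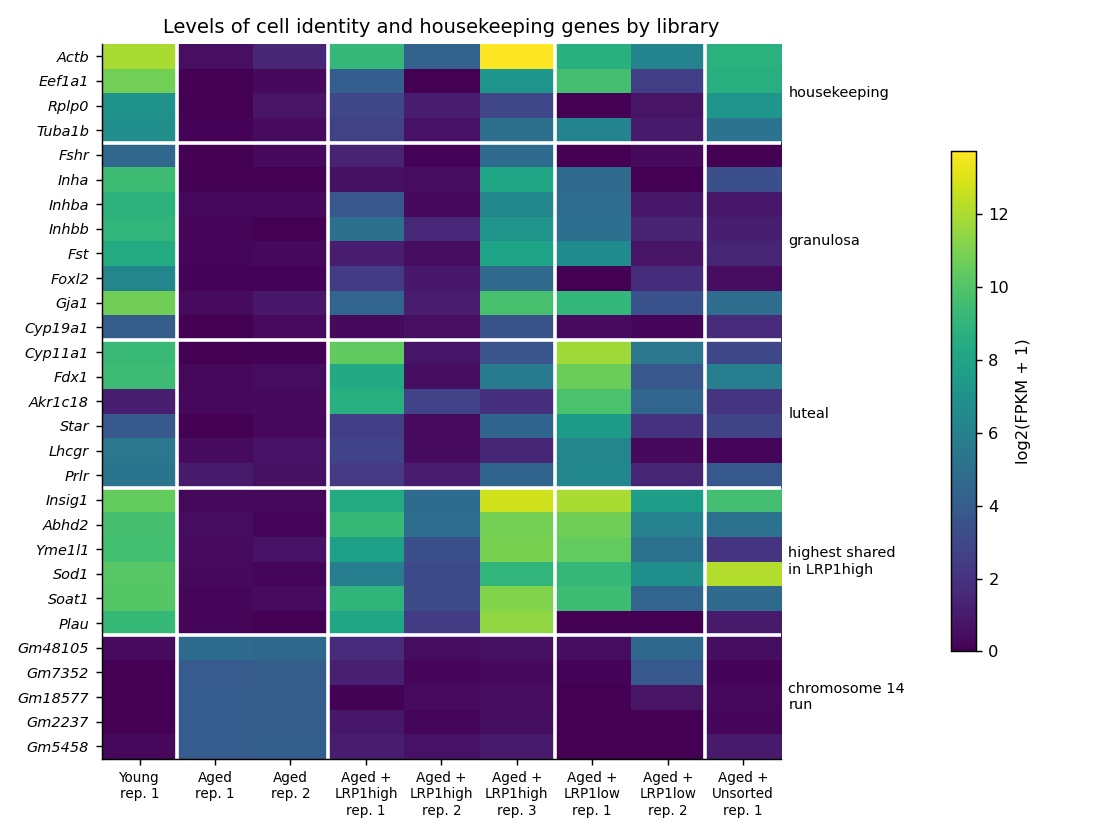
Level of housekeeping, granulosa and luteal genes, of genes high in the Aged + LRP1high libraries and of a run of neighbours on chromosome 14 (rows) in the 9 granulosa cell libraries (columns), as log2(FPKM + 1) in colour. The rows labelled highest shared are chosen genes, not a full ranking, and leave out Sept10. Both Aged libraries are dark except for the chromosome 14 run, replicate 3 of Aged + LRP1high is bright in the granulosa rows and replicate 1 in Cyp11a1, Fdx1 and Akr1c18.

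Genes of the cumulus expansion and ovulation program were few. Of 18 genes, 4 were tested and 0 had an unadjusted p under 0.05. Their median change was 0.96, but -0.29 after quantile normalization, -0.66 after median centring and -1.46 with TPM over protein-coding genes. Vcan, a proteoglycan of the expanded cumulus matrix, was at 0.185 and 0.349 and at 4.64, 0.657 and 8.02, and Runx1, a transcription factor induced at ovulation, at 0.391 and 0.283 and at 1.05, 1.04 and 2.59.

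Among the 5 libraries, steroidogenic genes summed highest in Aged + LRP1high replicate 1. The list of steroidogenesis and luteal genes summed to an FPKM of 3.86 and 4.26 in the Aged against 2161, 11.9 and 174 in the Aged + LRP1high libraries. Of 15 genes, 13 were tested, 1 had an unadjusted p under 0.05 (7.69%) and 7 did not overlap, all higher (53.8%, beside 50.4% of all genes). This 53.8% lies below the share of the protein-coding genes tested. The median change of 1.78 stayed above 0 under each of the 5 scalings. Cyp11a1, which cuts the side chain of cholesterol, was at 0 and 0.0497 in the Aged against 1341, 0.683 and 11.1 in the Aged + LRP1high libraries, a change of 4.88 (SE 3.15) with an unadjusted p of 0.174. Its electron donor ferredoxin, Fdx1, was at 0.240 and 0.375 and at 338, 0.406 and 47.8. Akr1c18, which inactivates progesterone and marks regressing luteal cells, was at 0.214 and 0.273 and at 386, 5.78 and 2.77. In contrast, Star, which carries cholesterol into mitochondria, was highest in replicate 3, at 0 and 0.243 in the Aged against 4.95, 0.340 and 20.4 in the Aged + LRP1high libraries. Lhcgr, the receptor of luteinizing hormone, was at 0.301 and 0.597 and at 5.80, 0.333 and 1.82 and overlapped between the groups. Of 6 luteal cell markers, 1 and 0 reached an FPKM of 1 in the Aged against 6, 2 and 5 in the Aged + LRP1high libraries, with a median change of 2.75 that was above 0 under each scaling.

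Cholesterol synthesis genes were read from replicates 1 and 3. Of 18 genes 15 were tested, 2 had an unadjusted p under 0.05 (13.3%, beside 7.99% of all genes) and 9 did not overlap, all higher (60%, beside 50.4%). The median change of 1.24 was -0.38 after median centring. Msmo1, a sterol methyl oxidase, was at 0.619 and 0.399 and at 44.9, 0.971 and 31.6, and Sc5d, a desaturase of the last steps, at 0.125 and 0.249 and at 1.28, 1.73 and 154. Insig1, described above, made up most of the summed level of this list in replicate 3.

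With deposited FPKM, transcripts of the mitochondrial genome stood on the other side of 0 from all other lists. The 13 protein-coding genes were all tested, 11 had a lower mean in Aged + LRP1high, 4 did not overlap between the groups, all lower, and 1 was lower at an unadjusted p under 0.05. Of all genes tested, 1.38% did not overlap on the lower side and 0.515% were lower at an unadjusted p under 0.05. The median change of the 13 genes was -0.71, the only negative median among the 39 lists. It stayed below 0 in each of the 4 scalings that include these genes. Their summed FPKM was 18128 and 11847 in the Aged against 19435, 4821 and 9799 in the Aged + LRP1high libraries, so that replicate 1 reached the level of the Aged libraries and replicate 2 held the least. The genes whose groups did not overlap were mt-Nd3, mt-Nd4l, mt-Nd5 and mt-Nd6, all subunits of complex I. mt-Nd4l was at 1513 and 929 in the Aged and at 473, 234 and 172 in the Aged + LRP1high libraries, a change of -2.15 (SE 0.63) with an unadjusted p of 0.0152. mt-Nd3 was at 1043 and 618 and at 362, 118 and 161, a change of -2.07 (SE 0.90). mt-Nd5 was at 1709 and 1166 and at 1152, 512 and 290.4, a change of -1.34 (SE 0.75). mt-Nd6, the one subunit encoded on the other strand, was at 1594 and 1132 and at 1115, 478 and 529, a change of -1.03 (SE 0.61). The remaining mitochondrial genes overlapped between the groups, with changes from -1.35 for mt-Atp8 over -0.94 for mt-Nd2, -0.71 for mt-Cytb, -0.70 for mt-Nd1, -0.71 for mt-Co1, -0.60 for mt-Nd4 and -0.12 for mt-Co3 to 0.26 for mt-Atp6 and 0.91 for mt-Co2.

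The profile along the mitochondrial genome also differed. In the Aged libraries the 13 genes lay close together, and the highest exceeded the lowest by 2.37 and 2.19 times. In the Young library this ratio was 78.1, with mt-Co2 highest and mt-Nd4l lowest. It was 8.97, 4.48 and 18.0 in the Aged + LRP1high libraries, where mt-Co2 was highest in replicates 1 and 3, as in Young, and mt-Nd1 in replicate 2, as in the Aged libraries. The mt-Co genes, which encode the catalytic subunits of cytochrome c oxidase, held 19.7% and 18.8% of the summed FPKM of the 13 genes in the Aged, 34.7%, 21.3% and 40.7% in the Aged + LRP1high and 49.7% in the Young library. These ratios are within a library and do not depend on its scale.

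**Figure D4:**
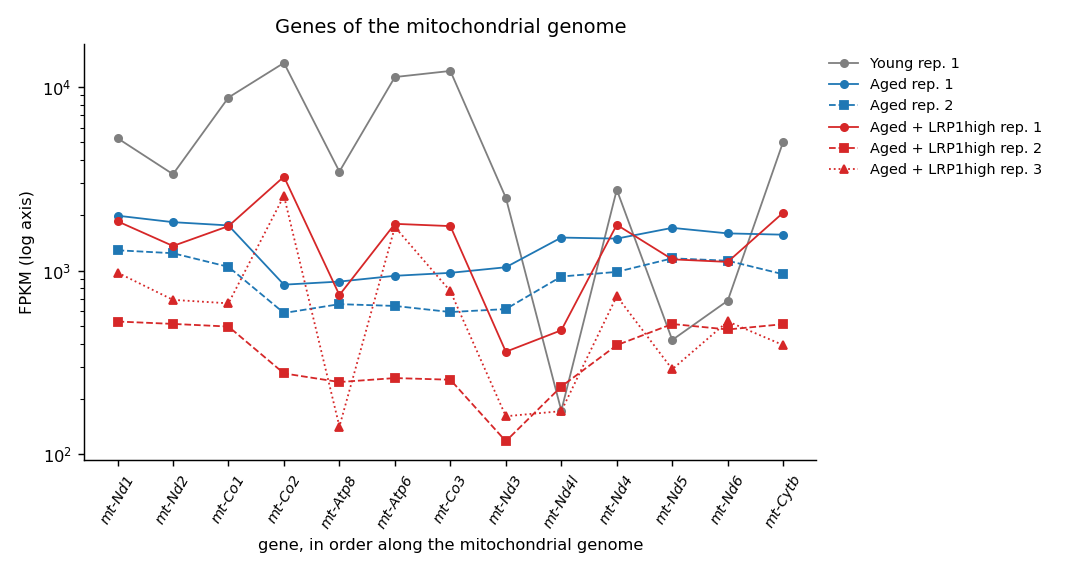
FPKM (log axis) of the 13 protein-coding genes in their order along the mitochondrial genome, in the Young, Aged and Aged + LRP1high libraries. The lines of both Aged libraries are nearly flat, with a ratio of highest to lowest gene of 2.37 and 2.19, whereas the lines of Young and of Aged + LRP1high replicates 1 and 3 peak at mt-Co2.

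The arginine transfer RNA mt-Tr, encoded between mt-Nd3 and mt-Nd4l, was the mitochondrial gene with the lowest change. It was picked by its values. Its level was 2106 and 1246 in the Aged against 121, 56.1 and 20.5 in the Aged + LRP1high libraries, a change of -4.93 (SE 0.80) with an unadjusted p of 0.000932, and it was 18.7 in the Young library. The gene spans chrM:9808-9875 on the plus strand (GRCm38), and its 68 bases, shorter than a single read of 150 bases, are shown with the anticodon in capitals:
mt-Tr: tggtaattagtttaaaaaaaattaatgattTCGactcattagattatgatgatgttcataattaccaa
A full-length read on this gene therefore extends into a neighbour, and the 3 genes of this stretch, mt-Nd3, mt-Tr and mt-Nd4l, had the lowest changes of the mitochondrial genes named here.

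Respiratory chain subunits encoded in the nucleus had positive medians. Of 37 complex I subunits all were tested, 3 had an unadjusted p under 0.05 (8.11%, beside 7.99% of all genes) and 12 did not overlap, all higher (32.4%, beside 50.4% of all genes). Their median change was 1.36, or -0.26 after median centring. Of 49 subunits of complexes II to V, 43 were tested. Of these, 1 had an unadjusted p under 0.05 (2.33%, below the share of all genes). Of the same subunits, 23 did not overlap, all higher (53.5%, below the share of the protein-coding genes tested). Their median change of 1.77 was above 0 under each of the 5 scalings. Atp5g3, a subunit of the membrane ring of ATP synthase, was at 0 and 0.263 and at 95.3, 1.78 and 119. Cox6c, a subunit of cytochrome c oxidase, was at 0.479 and 0.148 and at 68.6, 1.3 and 157, and Cox7b of the same complex at 0 and 0.390 and at 21.2, 2.12 and 101. Ndufv3 of complex I was at 0 and 0.547 and at 3.12, 1.33 and 21.4, a change of 2.27 (SE 0.97). In Aged + LRP1high replicate 2, these 4 subunits were at 2.12 or less.

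Genes of mitochondrial dynamics, import and NAD transport lay near the median of all genes. Of 22 genes 21 were tested, 1 had an unadjusted p under 0.05 (4.76%, below the share of all genes) and 12 did not overlap, all higher (57.1%). The median change was 0.87, but -0.34 after quantile normalization, -0.75 after median centring and -0.67 with TPM over protein-coding genes. Yme1l1, a protease of the inner membrane, stood apart at 0.314 and 0.594 in the Aged against 232, 9.23 and 2031 in the Aged + LRP1high libraries, a change of 6.87 (SE 2.51) with an unadjusted p of 0.0349. The mouse orthologs of 6 genes that the study followed in a human granulosa tumour line were all tested. Of these, 0 had an unadjusted p under 0.05 (0%, beside 7.99% of all genes) and 4 did not overlap, all higher (66.7%, beside 50.4%). Their median change of 0.69 was -0.27 after quantile normalization, -0.93 after median centring and -0.83 with TPM over protein-coding genes. The fusion proteins Mfn1 and Mfn2 were at 0.487 and 0.183 and at 0 and 0 in the Aged libraries and at 3.22, 1.06 and 0.723 and at 0.464, 0.482 and 0.449 in the Aged + LRP1high libraries. The fission factor Mff was at 0.688 and 0.904 and at 3.09, 0.461 and 1.10, and the groups overlapped. Import components of the outer and inner membrane were at 0.321 and 0.160 and at 4.65, 0.404 and 0.341 for Tomm20, 0.185 and 0.0972 and 2.30, 0.235 and 3.83 for Timm17a, and 0.756 and 0.274 and 2.32, 0.425 and 0.971 for Timm17b. The mitochondrial NAD transporter Slc25a51, of the longer list only, was at 0.101 and 0.327 and at 5.10, 0.459 and 1.23. Changes of these genes ran from 0.37 for Mff to 1.24 for Timm17a, with unadjusted p between 0.129 for Mfn2 and 0.666 for Mff. After median centring each of them was below 0.

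In NAD metabolism, 14 of 25 genes were tested, 2 had an unadjusted p under 0.05 (14.3%, beside 7.99% of all genes) and 8 did not overlap, all higher (57.1%, beside 50.4%). The median change of 0.92 was close to that of all genes. The enzymes that consume NAD in DNA repair, Parp1 and Parp2, were at 0.00675 and 0.0810 and at 0 and 0 in the Aged and at 1.09, 1.09 and 3.85 and 5.09, 0.647 and 1.73 in the Aged + LRP1high libraries. Nampt, the rate-limiting enzyme of the salvage pathway, was at 0 and 0.304 and at 0, 0.498 and 1.84, and Nmnat3, the mitochondrial enzyme that follows it, at 0.331 and 0.325 and at 6.92, 0.111 and 1.05, with overlap between the groups for both.

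Matrix genes were detected mainly in replicate 1, which also had the most detected genes and the most signal on vomeronasal receptor genes. Of 66 collagen, laminin and other matrix genes, 2 and 2 reached an FPKM of 1 in the Aged against 50, 5 and 20 in the Aged + LRP1high libraries. Here 32 were tested, 4 had an unadjusted p under 0.05 (12.5%, beside 7.99% of all genes) and 19 did not overlap, all higher (59.4%, beside 50.4%). The median change was 1.04, and -0.58 after median centring. Dcn, a small proteoglycan, was at 0.561 and 0.332 and at 67.6, 0.718 and 57.3. Col26a1 was at 0.0627 and 0 and at 4.04, 0.925 and 2.88, a change of 1.70 (SE 0.53) with an unadjusted p of 0.0189. Dcn also counts among the stromal cell markers, as does Col1a2, a chain of fibrillar collagen at 0.221 and 0.820 and at 41.9, 0.996 and 1.20. Of these markers, 0 and 1 of 8 reached an FPKM of 1 in the Aged against 6, 0 and 4 in the Aged + LRP1high libraries. The part of stromal cells in these matrix values was not tested. Among integrins, 12 of 34 were tested, 1 had an unadjusted p under 0.05 (8.33%) and 5 did not overlap, all higher (41.7%, below the share of all genes). The median of 0.67 was -0.29 after quantile normalization and -0.95 after median centring. Itgav, a partner of several beta chains, was at 0.296 and 0.259 and at 8.61, 1.43 and 5.34, a change of 2.05 (SE 0.63) with an unadjusted p of 0.0175.

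Of 48 matrix proteases and inhibitors, 13 were tested. Of these, 3 had an unadjusted p under 0.05 (23.1%, beside 7.99% of all genes) and 8 did not overlap, all higher (61.5%, beside 50.4%). Plau, the urokinase that activates plasminogen, had the second highest change of the genes in the lists, from 0.167 and 0 in the Aged to 278, 4.51 and 2824 in the Aged + LRP1high libraries, 7.24 (SE 2.45) with an unadjusted p of 0.0261. It was listed at 0 in both Aged + LRP1low libraries, where 41.1% and 20.4% of the genes tested were at 0, and was at 583 in the Young library. Timp2, an inhibitor of matrix metalloproteinases, was at 0 and 0.0727 and at 2.92, 0.390 and 2.31, a change of 1.34 (SE 0.53).

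Antioxidant enzymes were led by Sod1, the cytosolic superoxide dismutase, at 0.288 and 0.157 in the Aged against 56.5, 7.62 and 522 in the Aged + LRP1high libraries, a change of 5.71 (SE 1.72) with an unadjusted p of 0.0167. Of 29 genes 27 were tested, 3 had an unadjusted p under 0.05 (11.1%) and 14 did not overlap, all higher (51.9%, near the share of all genes). The median change was 1.07, or -0.55 after median centring. Gpx4, which reduces lipid peroxides, was listed at 0 in each Aged library and at 15.5, 1.20 and 33.4 in the Aged + LRP1high libraries. Chaperones and genes of the unfolded protein response had a median change of 1.94, above 0 under each of the 5 scalings. For this list 17 of 19 genes were tested and 1 had an unadjusted p under 0.05 (5.88%). Of those tested, 9 did not overlap, all higher (52.9%, near the share of all genes and below that of protein-coding genes). Hsp90aa1 was at 0.576 and 0.840 and at 355, 1.35 and 68.2, and Hspa5, the chaperone of the endoplasmic reticulum, at 0.215 and 0.175 and at 16.1, 0.662 and 53.6. Immediate early genes, which answer handling and dissociation of cells within minutes, had 15 of 21 members tested, 1 with an unadjusted p under 0.05 (6.67%) and 12 that did not overlap, all higher (80%). Dusp1, a phosphatase of this set, was at 0.121 and 0 and at 6.12, 1.37 and 18.2, and Egr1 at 0 and 0.0571 and at 6.11, 0.560 and 12.4.

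For the BCL2 family and caspases, 14 of 18 genes were tested. Of these, 2 had an unadjusted p under 0.05 (14.3%, beside 7.99% of all genes) and 9 did not overlap, all higher (64.3%, beside 50.4%). The survival factor Bcl2l1 was listed at 0 in each Aged library and at 5.18, 0.937 and 6.13 in the Aged + LRP1high libraries. Its opponents Bax and Bcl2l11 were at 0 and 0.130 and at 0 and 0.200 in the Aged and at 6.47, 1.17 and 1.13 and 1.05, 1.61 and 4.34 in the Aged + LRP1high libraries. After median centring Bax and Bcl2l11 were at -0.0063 and -0.14. For cell cycle genes, 22 of 24 were tested, 2 had an unadjusted p under 0.05 (9.09%) and 15 did not overlap, all higher (68.2%). The median change was 0.92. Ccnd2, the cyclin induced by follicle-stimulating hormone in granulosa cells, was at 0.178 and 0.121 and at 18.0, 0.766 and 17.8, a change of 2.90 (SE 1.12) with an unadjusted p of 0.0426. Cdk1, the kinase that starts mitosis, was at 0 and 0.0638 and at 6.76, 0.409 and 12.1. DNA damage genes lay below the median of all genes. Of 29 genes 25 were tested, 1 had an unadjusted p under 0.05 (4%) and 12 did not overlap, all higher (48.0%, below the share of all genes). The median of 0.73 was -0.21 after quantile normalization, -0.89 after median centring and -0.60 with TPM over protein-coding genes. Of 19 genes of senescence and its secreted factors 9 were tested. Of these, 1 had an unadjusted p under 0.05 (11.1%) and 4 did not overlap, all higher (44.4%, below the share of all genes). The chemokine Ccl2 was listed at 0 in each Aged library and at 10.9, 0.232 and 1.00 in the Aged + LRP1high libraries.

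Among the basic functions of the cell, cytosolic ribosomal proteins had the second highest median of the lists, 2.73, above 0 under each scaling. Of 82 genes 79 were tested, 4 had an unadjusted p under 0.05 (5.06%, below the share of all genes) and 47 did not overlap, all higher (59.5%). They summed to 26.6 and 30.3 in the Aged libraries, 1251, 88.4 and 10208 in the Aged + LRP1high and 57020.4 in the Young library. Rpl24 was at 0.709 and 0.599 and at 138, 2.71 and 860.4, and Rps27a at 0.731 and 0.241 and at 26.1, 9.68 and 299. Their processed pseudogenes can share reads with them. For glycolysis, 14 of 19 genes were tested, 6 had an unadjusted p under 0.05 (42.9%, beside 7.99% of all genes) and 12 did not overlap, all higher (85.7%, beside 50.4%). The median was 1.52, or -0.10 after median centring. Ldha, which makes lactate that granulosa cells hand on, was listed at 0 in each Aged library and at 4.01, 1.03 and 16.5 in the Aged + LRP1high libraries, with an unadjusted p of 0.0318. For the proteasome, 36 of 39 genes were tested, 2 had an unadjusted p under 0.05 (5.56%) and 15 did not overlap, all higher (41.7%), both shares below those of all genes, with a median of 1.20, or -0.42 after median centring. Psmc3, an ATPase of its cap, was listed at 0 in each Aged library and at 8.73, 2.32 and 14.5 in the Aged + LRP1high libraries, with an unadjusted p of 0.00706.

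In signalling, 18 of 19 genes of the insulin, IGF, PI3K and mTOR pathways were tested. Of these, 5 had an unadjusted p under 0.05 (27.8%, beside 7.99% of all genes) and 15 did not overlap, all higher (83.3%, beside 50.4%). The median was 1.48, or -0.14 after median centring. Tsc2, a brake on mTOR, was at 0.138 and 0.178 and at 4.23, 1.03 and 6.05, a change of 1.86 (SE 0.61) with an unadjusted p of 0.0232. Foxo3, a transcription factor that the PI3K pathway holds back, was at 0.192 and 0.175 and at 5.58, 0.543 and 19.1. Rptor, the scaffold of mTOR complex 1 and one of 12 genes that the study followed in oocytes, was at 0.351 and 0.226 and at 3.37, 2.47 and 2.12, a change of 1.49 (SE 0.34) with an unadjusted p of 0.00501. Of these 12, all were tested, Rptor alone had an unadjusted p under 0.05 (8.33%), and 8 did not overlap, all higher (66.7%). Their median of 1.07 was -0.20 after quantile normalization, -0.55 after median centring and -0.32 with TPM over protein-coding genes. The study chose them on the oocyte libraries of the same series. TGF-beta, BMP and activin signalling had 23 of 27 genes tested, 1 with an unadjusted p under 0.05 (4.35%) and 16 that did not overlap, all higher (69.6%). Its median of 0.71 was -0.07 after quantile normalization, -0.91 after median centring and -0.25 with TPM over protein-coding genes. The receptor Bmpr1a was at 0.297 and 0.205 and at 47.4, 0.911 and 0.987, high in replicate 1 only, and Id3, a target of BMP signals, at 0 and 0 and at 0.462, 0.972 and 28.7, high in replicate 3 only. Of 11 Hippo pathway genes 10 were tested, 1 had an unadjusted p under 0.05 (10%) and 8 did not overlap, all higher (80%). Its transcription factor Tead1 was at 0.549 and 0.168 and at 20.3, 0.838 and 1.54.

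Mouse Lrp1 itself was at 0.275 and 0.0361 in the Aged against 2.96, 0.589 and 1.22 in the Aged + LRP1high libraries, a change of 1.07 (SE 0.65) with an unadjusted p of 0.153, and 15.0 in the Young library. The files hold mouse genes, so transcripts of the human transplant were not analysed here. Of 10 genes of its receptor family 7 were tested. Of these, 2 had an unadjusted p under 0.05 (28.6%, beside 7.99% of all genes) and 5 did not overlap, all higher (71.4%, beside 50.4%).

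**Figure D5:**
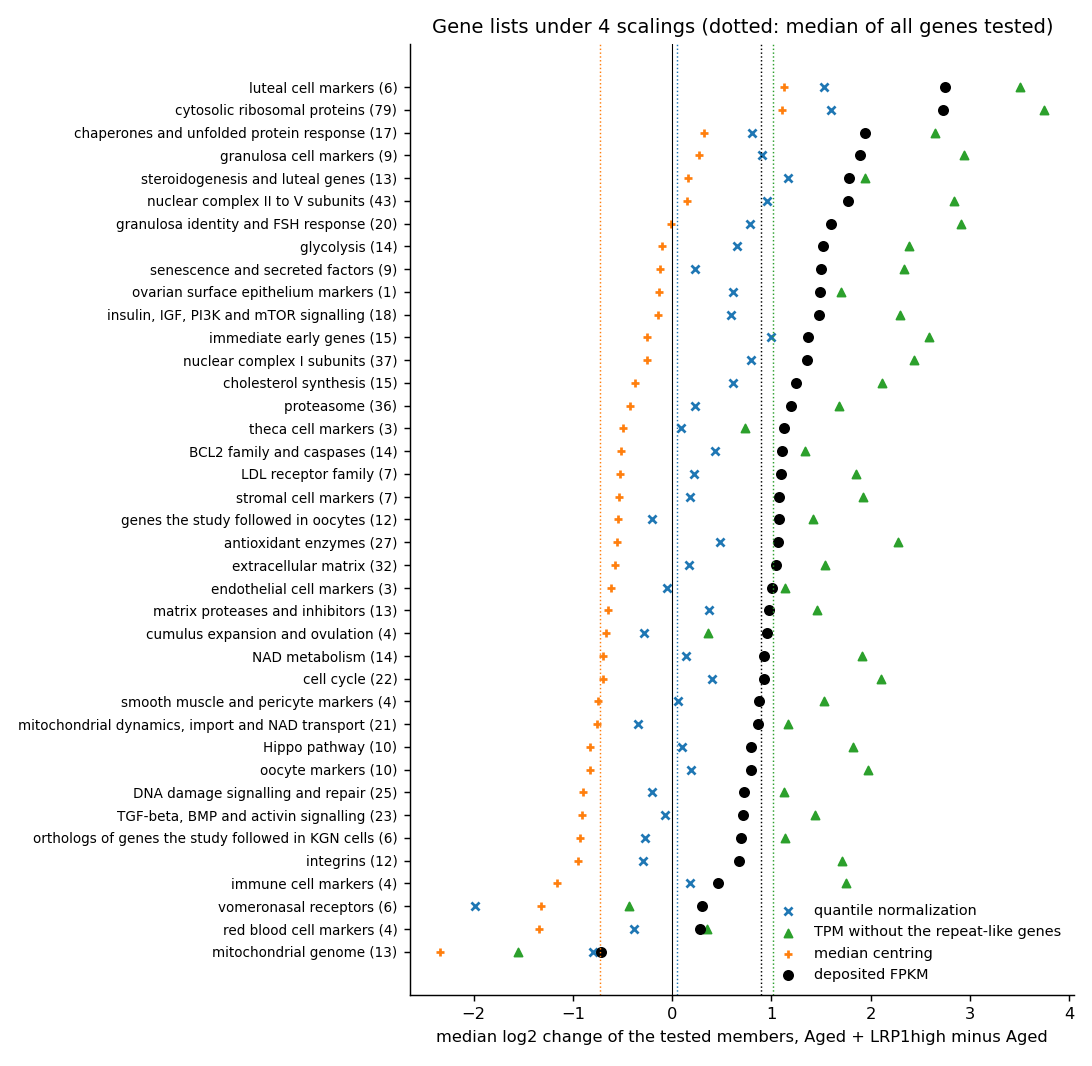
Median log2 change of the tested members of the 39 gene lists (number tested in parentheses), Aged + LRP1high minus Aged, with deposited FPKM and after 3 other scalings. Dotted lines are the medians of all genes tested under the same scaling. With deposited FPKM 38 of the 39 medians lie right of 0, and the mitochondrial genome lies left of 0 under all 4.

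Across all 39 lists, 0 had a called member. The share of tested members that did not overlap on the higher side was above the 50.4% of all genes in 26 lists, and the share with an unadjusted p under 0.05 above 7.99% in 17. Of the 10210 protein-coding genes tested, 5909 did not overlap on the higher side and 957 were higher at an unadjusted p under 0.05. These are larger shares than those of all genes, so fewer lists lie above them. For 35 of the 39 lists the summed FPKM of each Aged + LRP1high library was above that of both Aged libraries. The exceptions were the mitochondrial genome, the vomeronasal receptors, the theca cell markers and the red blood cell markers. The sum was lowest in replicate 2 for 38 lists, and highest in replicate 1 for 24 and in replicate 3 for 15. With deposited FPKM the medians of 38 lists were above 0, but those of only 6 were above 0 under each of the 5 scalings: luteal cell markers, cytosolic ribosomal proteins, chaperones, granulosa cell markers, steroidogenesis and luteal genes, and complexes II to V. A gene that passed the filter only through the Aged + LRP1high libraries had to differ, so these medians describe the lists and do not test them.

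Markers of other cells were read beside these groups. Of 10 oocyte markers, 0 and 0 reached an FPKM of 1 in the Aged against 7, 1 and 3 in the Aged + LRP1high libraries, with summed FPKM of 1.18 and 0.681 and of 38.0, 5.46 and 8.19. The oocyte linker histone H1foo was at 0.187 and 0 and at 17.1, 0.701 and 1.04, and Dppa3, a maternal guard of methylation, at 0.349 and 0 and at 5.28, 1.24 and 1.81. Immune markers summed to 1.68 and 2.11 and to 16.3, 4.88 and 5.09, endothelial markers to 1.59 and 1.77 and to 12.1, 3.23 and 15.2, and red blood cell markers to 0.936 and 0.835 and to 7.18, 1.52 and 0.930. Theca cell markers summed to 2.52 and 1.14 and to 67.0, 1.5 and 62.4, which came mostly, in replicates 1 and 3, from Mgarp, a mitochondrial protein of steroidogenic cells, at 0 and 0.164 and at 54.5, 0.318 and 60.8. Smooth muscle and pericyte markers summed to 0.620 and 0.672 and to 15.7, 2.92 and 5.76, and ovarian surface epithelium markers to 0.763 and 0.737 and to 10.5, 3.76 and 21.4. Replicate 1 had the highest sum for 5 of these 7 lists. The part of these cells in the results was not tested.

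Genes that were lower in Aged + LRP1high were mostly not protein-coding. Of the 67 genes with an unadjusted p under 0.05 on the lower side, 35 are processed pseudogenes and 9 protein-coding genes. By smallest unadjusted p, the protein-coding genes were Gm5458, Gm2237, Gm2244, mt-Nd4l and Calb1. Calb1, a calcium-binding protein, was at 2.10 and 1.74 in the Aged against 0, 0.152 and 0.381 in the Aged + LRP1high libraries, a change of -1.32 (SE 0.42) with an unadjusted p of 0.0204. Gm5458, Gm2237 and Gm2244 lie next to each other on chromosome 14, and 5 further genes of the lower side lie in the same stretch. This run was noticed in the values. It comprises, in order, Gm36704, Gm48105, Gm7352, Gm18577, Gm2244, Gm2237, Gm5458 and Gm41102 and spans chr14:19496370-19618889 (GRCm38). These 8 genes are 8 of the 11 genes on chromosome 14 that were lower at an unadjusted p under 0.05.

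Both Aged libraries covered the run at a nearly even level. The 8 genes were between 11.7 and 27.3 in the Aged libraries, between 0.0445 and 2.76 in the Aged + LRP1high libraries, and between 0 and 0.304 in the Young library. Gm2237 was at 15.0 and 15.3 in the Aged against 0.865, 0.155 and 0.436 in the Aged + LRP1high libraries, a change of -3.47 (SE 0.36) with an unadjusted p of 8.54e-05. Gm5458 was at 15.1 and 16.6 and at 1.04, 0.575 and 0.988, a change of -3.18 (SE 0.33) with an unadjusted p of 8.54e-05. The lincRNA Gm48105 was the highest of the run in both Aged libraries, at 27.3 and 23.2 and at 2.12, 0.363 and 0.522. In Aged + LRP1low replicate 2 the first 3 genes of the run were at the level of the Aged libraries, between 12.5 and 23.3, and the 5 genes after them between 0 and 0.743. Changes of the 8 genes against Aged ran from -3.81 to -2.69 with adjusted p between 0.289 and 0.458, and 7 of them were called after median centring and 5 after quantile normalization. The 3 protein-coding genes share a stretch of 78 coding bases, shown because the part of a read that lies on it is the same in each copy (GRCm38, minus strand):
Shared-coding-stretch: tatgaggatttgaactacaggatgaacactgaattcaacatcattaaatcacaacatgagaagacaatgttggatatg
The same 78 bases occur in transcripts of 59 genes of the annotation. The stretch is shorter than a single read of 150 bases, and how far the copies agree beyond it was not measured. Whether reads could be assigned to a single copy was thus not tested.

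Aged + LRP1low was set beside Aged + LRP1high for the same genes. Both comparisons use the same 2 Aged libraries, so their values against Aged are given side by side only. Against Aged, 0 genes were called in Aged + LRP1low, with 397 higher (3.05%) and 96 lower (0.738%) at an unadjusted p under 0.05, and a median change of 0.31. The direct test of Aged + LRP1high against Aged + LRP1low called 0 genes, with 538 higher (4.14%) and 131 lower (1.01%) at an unadjusted p under 0.05 and a smallest adjusted p of 0.629. Aged + LRP1low replicate 1 was the shallowest granulosa cell library, at 0.335 gigabases, where 1 read pair over 1 kilobase amounts to an FPKM of 0.896. Of the genes tested, 41.1% and 20.4% were listed at 0 in the Aged + LRP1low libraries. The shares were 14.4%, 10.3% and 7.03% in the Aged + LRP1high libraries. Plau was at 278, 4.51 and 2824 in the Aged + LRP1high libraries and listed at 0 in both Aged + LRP1low libraries, with an unadjusted p of 0.0246. Dusp1 was also listed at 0 in both Aged + LRP1low libraries, with an unadjusted p of 0.0187. Psmc3 was at 0 and 1.07 there, a difference of 2.47 with an unadjusted p of 0.0161. The smallest unadjusted p of the listed genes was that of Hspe1, a chaperone of the mitochondrial matrix, at 0.251 and 0.283 in the Aged libraries, 0.549, 0.253 and 2.19 in the Aged + LRP1high and 85.6 and 33.7 in the Aged + LRP1low libraries, a difference of -4.90 with an unadjusted p of 0.000209. Lower in Aged + LRP1high as well, Dppa3 was at 11.0 and 13.1 in the Aged + LRP1low libraries, a difference of -1.94 with an unadjusted p of 0.0117. Insig1, Cyp11a1 and Sod1 were at 4036 and 199, at 3503 and 42.2 and at 556 and 115 in the Aged + LRP1low libraries, with differences of -1.17, -3.69 and -2.0 and unadjusted p of 0.647, 0.287 and 0.291. Inha was at 26 and 0 and Gja1 at 534 and 9.89 in these libraries, which lie within the range of the Aged + LRP1high libraries or below it.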

How the data were processed

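RNA-seq of 9 granulosa cell libraries was used, 5 of them in the comparison. Per the submitters' processing notes, reads were aligned with HISAT2 2.2.1 and quantified per library with StringTie 1.3.3b. The deposited tables hold coverage (a signal per base), FPKM and TPM as the authors made them, with no read counts. The labels name build mm9, but 54580 of 55335 identifiers carry the coordinates of GENCODE M21 on GRCm38, which is the build of every position given. The paper describes Smart-seq2 libraries and the labels a stranded kit. Values of repeated identifiers were summed. Depth was estimated by dividing coverage by FPKM in genes of 1 exon, taking reads of 150 bases in pairs, and intervals of counting error were not computed. Genes averaging an FPKM of 1 or more were tested on log2(FPKM + 1) in 1 model of all 5 groups with limma 3.58.1 in R 4.3.3, after a check on simulated data, with adjustment by Benjamini-Hochberg over all genes. Called genes had a fold over 1.5 and an adjusted p under 0.05. Alternatives were deposited TPM, TPM without the 10 repeat-like genes, a pseudocount of 0.1, no filter or a minimum of 5, the 5 libraries alone, quantile normalization, median centring, a variance trend, a replicate block, leaving out each replicate and, chosen after seeing the data, TPM over protein-coding genes. Named genes were the 5 protein-coding genes per direction with the smallest p whose groups did not overlap, and members of fixed lists. Others are marked as picked by their values. Members and lists were chosen with earlier results of these data known. The sequences come from GENCODE M21 and its genome. Results of 3 genes of the lists are not reported here.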

Additional observations from a re-analysis of the deposited data

How the results depend on the processing

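The count of called genes, 0 with deposited FPKM, was 1 with deposited TPM, with a pseudocount of 0.1 and with a minimum mean of 5, in each case Gm10717. It was 48 after quantile normalization, 6 higher and 42 lower, and 26 after median centring, 17 higher and 9 lower. Leaving out 1 replicate gave between 0 and 1 called genes, Gm10717 without Aged + LRP1high replicate 2. With no adjustment the count was 1106, and this count was 3759 with TPM without the repeat-like genes, 2194 with TPM over protein-coding genes, 165 with a minimum of 5, 308 after median centring, 3697 with no filter and 2593 with a pseudocount of 0.1. Leaving out 1 replicate moved it between 97 and 2772. The median over all genes, 0.89, was 0.17 with TPM over protein-coding genes, 0.37 with no filter, 2.05 with a pseudocount of 0.1, 0.051 after quantile normalization and -0.73 after median centring.

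A fit with the replicate number as a block called 0 genes, with 495 past an unadjusted p under 0.05, 461 higher and 34 lower. The numbers were not taken as pairing the libraries, since no pairing is mentioned in the sources used here. The correlation of same-numbered Aged and Aged + LRP1high deviations was 0.0135 and 0.00066. For same-numbered Aged + LRP1high and Aged + LRP1low libraries it was -0.0761 and 0.256. The deviations of a group of 2 libraries mirror each other, so these values cannot settle whether libraries were paired.

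After median centring the change turned sign to -0.0063 for Bax, -0.14 for Bcl2l11, -0.35 for Cyp19a1, -0.068 for Dppa3, -1.09 for Hspe1, -0.59 for Lhcgr, -0.55 for Lrp1, -1.25 for Mff, -0.73 for Mfn1, -1.07 for Mfn2, -1.36 for mt-Atp6, -0.71 for mt-Co2, -1.12 for Nampt, -0.64 for Nmnat3, -0.21 for Parp1, -0.030 for Parp2, -0.010 for Pnpla7, -0.13 for Rptor, -0.74 for Runx1, -0.46 for Slc25a51, -0.38 for Timm17a, -1.13 for Timm17b, -0.28 for Timp2 and -0.79 for Tomm20. After quantile normalization the change turned sign to -0.63 for Hspe1, -0.48 for Lhcgr, -1.58 for Mff, -0.13 for Mfn1, 0.27 for mt-Co3, -0.42 for Nmnat3, -0.096 for Runx1, -1.03 for Timm17b and -0.41 for Tomm20. With TPM over protein-coding genes the change turned sign to -1.58 for Hspe1, -1.12 for Lhcgr, -2.37 for Mff, -0.74 for Mfn1, -1.40 for Nmnat3, -0.88 for Runx1, -0.0066 for Slc25a51, -1.80 for Timm17b and -0.91 for Tomm20. With TPM without the repeat-like family the change turned sign to -0.24 for Mff and -0.57 for mt-Atp6. With the replicate block the change turned sign to -0.18 for mt-Atp6. With deposited TPM the change turned sign to 0.23 for mt-Co3. Leaving out 1 replicate gave changes from -0.035 to 0.71 for Mff, from -0.21 to 1.18 for mt-Atp6 and from -0.78 to 0.61 for mt-Co3, which crossed 0.
The cause of these moves was not tested. Depth limits what a low value shows, since an FPKM below 0.234 to 0.529 on a gene of 1 kilobase is under 1 read pair, and 2568 genes tested were listed at 0 in both Aged libraries. The most common low signal on genes of 1 exon was 150 bases, a single read, in both Aged libraries and Aged + LRP1high replicate 2. It was 300 bases in Aged + LRP1high replicates 1 and 3. A value under 1 read pair can thus still hold a single read. With 2 Aged libraries and 4 residual degrees of freedom the spread of a single gene is poorly known.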
